A study of Homo sapiens with 28 samples.

Results

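The 8 genes described here encode the enzymes that write and remove DNA methylation and the isocitrate dehydrogenases, which make a compound that the removing enzymes need. They are the writers DNMT1, DNMT3A and DNMT3B, the oxidases TET1, TET2 and TET3, and the enzymes IDH1 and IDH2. They were chosen by name, and all 8 of the listed genes were found among the 17687 genes that the array annotation names. Each was read by 1 probe set, which the annotation pairs with 1 to 6 RefSeq transcripts (1 for TET1 and TET3, 2 for TET2 and DNMT1, 3 for IDH1 and IDH2, 4 for DNMT3A and 6 for DNMT3B), so that isoforms of a gene could not be separated.

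Cytosine followed by guanine (CpG) is the main site of DNA methylation in mammalian cells. DNMT1 copies the mark onto the new strand after replication, and DNMT3A and DNMT3B set it on unmethylated DNA. The TET proteins oxidise the methyl group, which starts its removal, and they need iron and 2-oxoglutarate to do so. IDH1 in the cytosol and IDH2 in mitochondria make 2-oxoglutarate from isocitrate. In acute myeloid leukemia (AML) the genes for TET2, DNMT3A, IDH1 and IDH2 are among those most often mutated, and TET1 was first found as a fusion partner of MLL.

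RNA was measured in established human AML cell lines cultured for 8 days with 1 µM Pinometostat, an inhibitor of the histone H3 methyltransferase DOT1L, or with vehicle alone. Vehicle was DMSO 0.01%, and vehicle cells are called control below. A rearranged MLL gene (MLL-r) is carried by THP-1, MV4-11, NOMO-1 and MOLM-13, and is lacking in HL-60, OCI-AML3 and U-937. Each of the 7 lines had 2 control and 2 treated arrays, 28 in all. The labels do not say that replicates came from separate cultures, so p-values measure the spread between these samples, which may be technical. The p-values also draw on the spread over all genes, towards which the spread of each gene was moved. A cell line is a single model of the disease, and the results describe these lines only. Values are log2 signals of the Clariom S array, in which a difference of 1 is a doubling. The number of arrays limits the precision, and signals of different genes were not set against each other.

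Median signals per array ran from 5.61 to 5.76 on the log2 scale. Of the 9 myeloid markers examined 8 were measured by name, and the pan-leukocyte gene PTPRC (8.49 to 11.0) and the myeloid transcription factor SPI1 (8.18 to 10.5) gave high log2 signals on every array. MPO, an enzyme of myeloid granules, ran from 4.79 to 12.4 over all arrays and had its highest control mean in HL-60 (12.1). The remaining myeloid markers also varied and reached low signals on some arrays. They were CSF1R (4.31 to 10.7), ITGAM (4.04 to 10.9), LYZ (3.66 to 13.3), ANPEP (3.97 to 12.5) and KIT (2.64 to 8.25). Among 16 measured markers of other cell types, the T cell genes CD3E, CD3D and CD2 stayed at 4.98 or below, and MS4A1, KLRD1, HBB and EPCAM at 4.70 or below. The stromal genes COL1A2 (6.81 to 8.40) and COL1A1 (5.55 to 6.88), the epithelial gene KRT8 (6.32 to 8.13) and the B cell gene PAX5 (5.71 to 7.02) gave higher signals, which the table, having no detection calls, does not separate from background. NCAM1 reached 11.6 in OCI-AML3 and PECAM1 reached 10.5, both of which some myeloid leukemia cells also carry.

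The sequences around the transcription start of the sister genes TET2 and TET1, whose signals moved in opposite directions in NOMO-1, are shown with each CpG in capitals, since CpG is the site on which the DNMT and TET enzymes act. Both are RefSeq promoter windows on GRCh38.p14, plus strand, which span the start site and its first transcribed bases. The TET2 window lies at chr4:105146626-105146925 and holds 35 CpG, more than 85.9% of the 35116 RefSeq promoter windows of this length. The TET1 window at chr10:68560087-68560386 holds 10, below the median of 14 over all windows. These are 1 of 2 TET2 windows and 1 of 3 TET1 windows held by the table. The other TET2 window holds 13 CpG, also below that median, and the other TET1 windows hold 6 and 11, so that the number of CpG depends on the start site. DNA methylation was not measured in these samples.
TET2: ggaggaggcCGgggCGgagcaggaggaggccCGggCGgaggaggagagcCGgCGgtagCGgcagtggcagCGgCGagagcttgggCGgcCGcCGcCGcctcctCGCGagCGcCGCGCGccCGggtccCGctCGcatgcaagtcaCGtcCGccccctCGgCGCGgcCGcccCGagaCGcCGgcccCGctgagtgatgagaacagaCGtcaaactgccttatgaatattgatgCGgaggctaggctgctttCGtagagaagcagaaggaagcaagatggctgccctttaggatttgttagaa
TET1: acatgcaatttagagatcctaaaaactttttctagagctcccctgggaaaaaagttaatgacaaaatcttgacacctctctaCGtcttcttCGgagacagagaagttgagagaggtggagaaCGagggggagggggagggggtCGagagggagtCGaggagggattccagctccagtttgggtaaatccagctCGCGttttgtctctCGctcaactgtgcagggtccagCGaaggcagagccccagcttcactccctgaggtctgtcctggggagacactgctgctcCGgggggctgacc

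In control cells the lines differed most in DNMT3A, IDH2 and TET2. Over the 14 control arrays, 6 of the 8 genes differed between lines at a Benjamini-Hochberg adjusted p under 0.05 (limma F-test over all named genes), where 29.8% of all genes did so. DNMT1 (adjusted p = 0.424) and TET3 (adjusted p = 0.941) did not pass. MLL-r and non-MLL-r lines were not separated by the control level of any of the 8 genes (limma on the 7 line means, 0 of 8 at an adjusted p under 0.05 and 0 of 8 at an unadjusted p under 0.05), nor by that of any other gene (0% of all genes called, with 1148 genes at an unadjusted p under 0.05). Pairs of lines were also compared, 21 for each gene, and 10.3% of such pairs were called over all genes.

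**Figure D1:**
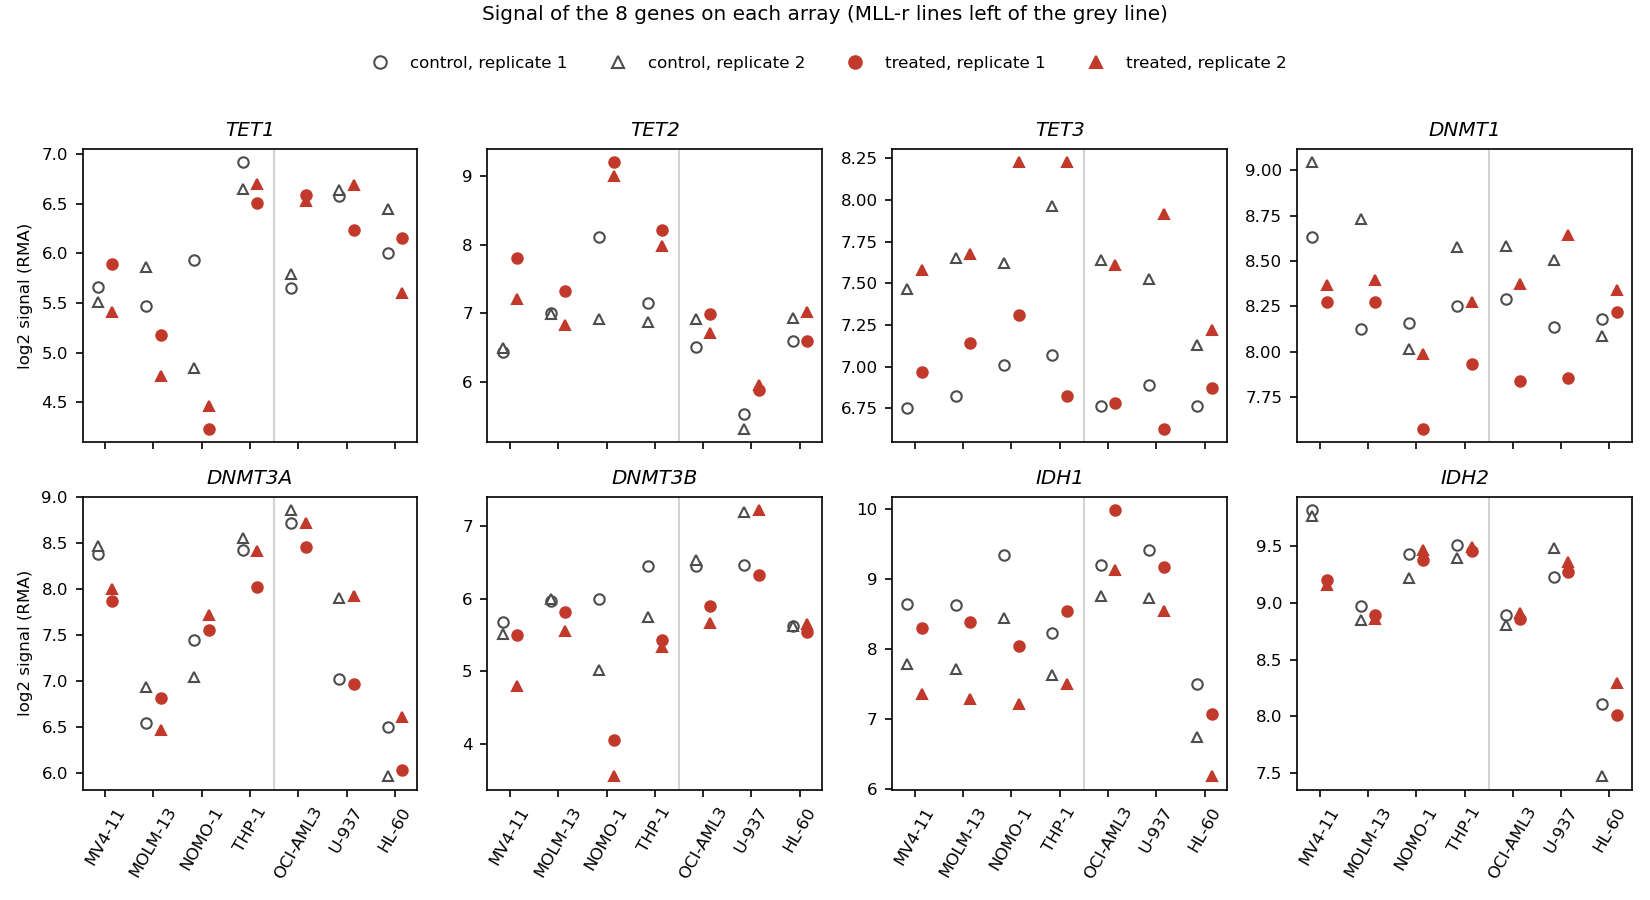
Log2 signal (y axis) of each gene on each array, by cell line (x axis), for control (open) and treated (filled) arrays, with replicate 1 as circles and replicate 2 as triangles. TET2 on both treated NOMO-1 arrays (9.00 and 9.20) was the highest of all 28 arrays and DNMT3B there (3.55 and 4.05) the lowest, while TET3 and IDH1 separated by replicate number.

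Control DNMT3A, the de novo methyltransferase most tied to AML, was highest in OCI-AML3 with a log2 signal of 8.78 ± 0.10 (SD, n = 2), followed by THP-1 (8.48 ± 0.09) and MV4-11 (8.42 ± 0.06). U-937 (7.46 ± 0.62), NOMO-1 (7.24 ± 0.28), MOLM-13 (6.74 ± 0.27) and HL-60 (6.23 ± 0.38) lay below. The highest and lowest lines were 5.88-fold apart (adjusted p = 7.12e-05 for the difference among lines), and 12 of 21 pairs of lines differed. The first 3 lines were thus apart from most of the others, but no line differed from its next neighbour in the order, and the step from MV4-11 to U-937 of 0.96 had an adjusted p of 0.0752. The study states that OCI-AML3 carries a mutation of DNMT3A, and no value here separates mutant from normal transcript.

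IDH2, the mitochondrial enzyme, was lower in control HL-60 (7.79 ± 0.45) than in any other line. The order above it was MV4-11 (9.80 ± 0.04), THP-1 (9.45 ± 0.08), U-937 (9.36 ± 0.18), NOMO-1 (9.33 ± 0.15), MOLM-13 (8.91 ± 0.09) and OCI-AML3 (8.85 ± 0.06). All 6 of the 21 pairs that differed contained HL-60 (limma F-test, adjusted p = 0.000655). The step from OCI-AML3 to HL-60, 1.07 log2, was the only difference between neighbours to pass for any of the 8 genes (adjusted p = 0.0120).

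Control TET2 was lowest in U-937 (5.42 ± 0.15) and highest in NOMO-1 (7.51 ± 0.84), a 4.24-fold range (adjusted p = 0.00559). The lines between were THP-1 (7.01 ± 0.20), MOLM-13 (6.99 ± 0.01), HL-60 (6.76 ± 0.24), OCI-AML3 (6.71 ± 0.28) and MV4-11 (6.46 ± 0.04). U-937 differed from 5 of the 6 other lines, and the step to its neighbour MV4-11 of 1.04 did not pass (adjusted p = 0.0708). No other pair of lines differed in TET2.

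Control TET1 ran from 5.39 ± 0.77 in NOMO-1 to 6.78 ± 0.19 in THP-1 (adjusted p = 0.0178 among lines). THP-1 was followed by U-937 (6.61 ± 0.04), HL-60 (6.22 ± 0.31), OCI-AML3 (5.72 ± 0.10), MOLM-13 (5.67 ± 0.28) and MV4-11 (5.59 ± 0.11), and 3 pairs differed, namely THP-1 from MV4-11 and NOMO-1, and U-937 from NOMO-1. IDH1, the cytosolic enzyme, was highest in U-937 (9.07 ± 0.49), OCI-AML3 (8.98 ± 0.32) and NOMO-1 (8.90 ± 0.64), and each of these differed from HL-60 (7.13 ± 0.53, adjusted p = 0.0212 among lines). MV4-11 (8.21 ± 0.61), MOLM-13 (8.18 ± 0.65) and THP-1 (7.94 ± 0.43) lay between and differed from no other line.

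Control DNMT3B, the second de novo enzyme, was highest in U-937 (6.83 ± 0.52) and lowest in NOMO-1 (5.51 ± 0.69), with an adjusted p of 0.0461 among lines. OCI-AML3 (6.49 ± 0.06), THP-1 (6.10 ± 0.50), MOLM-13 (5.98 ± 0.02), HL-60 (5.63) and MV4-11 (5.60 ± 0.12) filled the order, and the 3 pairs that differed set U-937 against NOMO-1, MV4-11 and HL-60. The maintenance enzyme DNMT1 covered 8.09 (NOMO-1) to 8.84 (MV4-11) and TET3 6.95 (HL-60) to 7.52 (THP-1), and for neither did any pair of lines differ.

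After Pinometostat TET2 rose in MV4-11, NOMO-1 and THP-1, while DNMT3B, IDH1 and TET1 fell in NOMO-1. These 6 of the 56 combinations of gene and line passed the thresholds, which ask for p under 0.05 before adjustment and a change of 1 log2 or more in the limma fit of that line's 4 arrays. None passed in HL-60, U-937, OCI-AML3 or MOLM-13. NOMO-1 held 4 of the 6, where 7.88% of all genes passed, against 1 of 8 in MV4-11 (3.91% of all genes) and 1 of 8 in THP-1 (2.44%). In the lines with 0 of 8 the thresholds called 0.944% (MOLM-13), 2.44% (OCI-AML3), 0.413% (U-937) and 0.435% (HL-60) of all genes. The unsigned change of the 8 genes had a median of 0.75 log2 in NOMO-1 and 0.47 in MV4-11, against 0.28 and 0.24 over all genes, and in the other lines it lay between 0.07 and 0.26 against 0.15 to 0.20. Treated and control arrays did not overlap for 22.7% (HL-60) to 37.5% (NOMO-1) of all genes, so that separate groups of 2 arrays are common. RNA came from whole cultures, in which fewer cells of a kind and less RNA per cell cannot be told apart.

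At an adjusted p under 0.05 none of the 56 combinations was called by limma (10 of 56 had an unadjusted p under 0.05). Over all genes this rule called 2.12% in NOMO-1, 1.1% in MV4-11, 0.628% in THP-1, 0.0396% in MOLM-13, 0.905% in OCI-AML3, 0.0396% in U-937 and 0% in HL-60. Arrays with the same replicate number varied together within each line. In a fit blocked on that number the same 6 combinations passed at an adjusted p under 0.05 and no others. With the block the share of all genes called was 15.5% in NOMO-1, 6% in MV4-11, 4.39% in THP-1, 0.599% in MOLM-13, 2.94% in OCI-AML3, 0.0339% in U-937 and 0% in HL-60. The blocked adjusted p is therefore given beside each of these 6 results. The arrays of a line leave little residual spread in the blocked fit, so its p-values rest mostly on the spread over all genes.

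**Figure D2:**
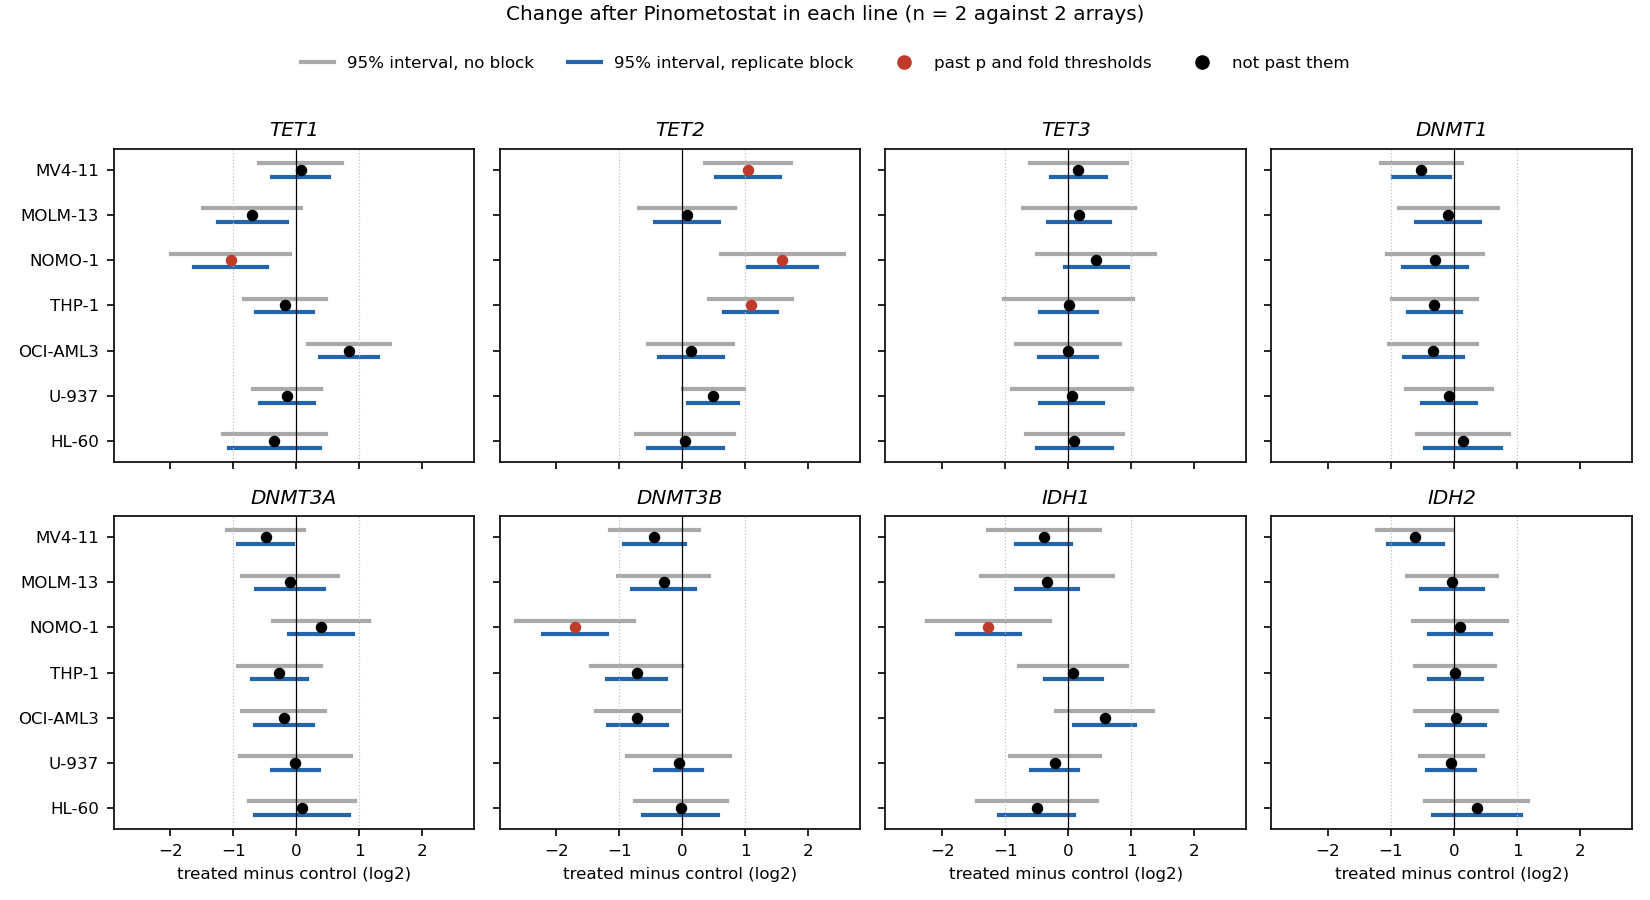
Treated minus control change (x axis, log2) of each gene in each line (y axis), with the 95% interval without (grey) and with (blue) the replicate block, n = 2 against 2 arrays. The 6 red points passed the thresholds, 3 of them for TET2 and 4 in NOMO-1.

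TET2, the oxidase that is lost by mutation in many myeloid neoplasms, showed its largest change in NOMO-1. Its log2 signal was 8.10 and 6.91 on the control arrays and 9.20 and 9.00 on the treated arrays. The treated arrays were both above the control arrays, which themselves lay 1.19 apart. The change was 1.59 ± 0.43 log2 (SE), 3.01-fold higher, with an adjusted p of 0.123 without and 0.000150 with the block.

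In MV4-11 the TET2 signal was 6.43 and 6.49 in control and 7.80 and 7.21 in treated cells. The groups did not overlap, and the difference was 1.04 ± 0.30 log2 or 2.06-fold (adjusted p = 0.197, and 0.0328 with the block). In THP-1 it was 7.15 and 6.87 in control and 8.21 and 7.99 in treated cells. Here too both treated arrays stood above both control arrays, by 1.09 ± 0.30 log2 or 2.12-fold (adjusted p = 0.251, and 0.00831 with the block). U-937, the line with the lowest control signal, had 5.53 and 5.31 in control and 5.88 and 5.95 in treated cells, a change of 0.49 ± 0.21 that did not reach the fold threshold (unadjusted p = 0.0474 in limma). The treated arrays of U-937 were still below all control arrays of the other lines. Changes in the remaining lines were 0.13 in OCI-AML3 (95% interval -0.54 to 0.81), 0.08 in MOLM-13 (-0.68 to 0.84) and 0.05 in HL-60 (-0.73 to 0.83). The MLL-r line MOLM-13 thus gave a value between those of the non-MLL-r lines OCI-AML3 and HL-60, and the intervals of all 3 include 0.

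TET1, whose protein binds CpG-rich DNA through a CXXC domain, fell in NOMO-1. The log2 signal there was 5.93 and 4.85 in control and 4.23 and 4.47 in treated cells. The lower control array was nearer to the treated arrays than to the other control array. The change was -1.04 ± 0.42 log2, 2.06-fold lower (adjusted p = 0.362, and 0.0122 with the block), and without control replicate 1 it was -0.50. In OCI-AML3 TET1 had 5.65 and 5.79 in control and 6.59 and 6.53 in treated cells. The groups were well apart in the opposite direction, by 0.84 ± 0.30 log2, below the fold threshold (adjusted p = 0.523, and 0.0630 with the block). MOLM-13 gave -0.70 ± 0.34, and the other 4 lines lay between -0.35 (HL-60) and 0.07 (MV4-11).

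TET3 did not pass in any line. Its changes ran from -0.01 (OCI-AML3) to 0.45 (NOMO-1), and the groups overlapped in all 7 lines. The 95% intervals reached down to -1.01 (THP-1) and up to 1.39 (NOMO-1), and those of THP-1, NOMO-1, MOLM-13 and U-937 include a change of 1 log2.

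DNMT3B fell in NOMO-1, with log2 signals of 5.99 and 5.02 in control and 4.05 and 3.55 in treated cells. Both treated arrays were below both control arrays and below every array of the other lines. The change of -1.70 ± 0.41 log2, 3.26-fold lower, was the largest of the 56 (adjusted p = 0.0852, and 2.71e-05 with the block). In THP-1 the signal was 6.46 and 5.75 in control and 5.44 and 5.33 in treated cells, and in OCI-AML3 6.45 and 6.53 in control and 5.90 and 5.66 in treated cells. The groups did not overlap in either line, as for 30.1% of all genes in THP-1 and 28.9% in OCI-AML3. The changes were -0.72 ± 0.33 (adjusted p = 0.859, and 0.0962 with the block) and -0.71 ± 0.30 (adjusted p = 0.800, and 0.131 with the block), both short of the fold threshold. The values were -0.44 in MV4-11, -0.30 in MOLM-13, -0.06 in U-937 and -0.02 in HL-60, so that the sign was negative in 7 of 7 lines.

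DNMT1 did not pass in any line. It was lower after treatment in 6 of 7 lines, by values from -0.07 (U-937) to -0.52 (MV4-11), with 0.15 in HL-60. In MV4-11 the control arrays read 8.63 and 9.04 and the treated arrays 8.27 and 8.37, which did not overlap, as for 37.4% of all genes in this line (adjusted p = 0.639). DNMT3A did not pass either. Its values ran from -0.49 in MV4-11, where control arrays at 8.38 and 8.46 stood above treated arrays at 7.87 and 8.00 (adjusted p = 0.645), to 0.39 in NOMO-1. In the lines with the highest and lowest control DNMT3A, OCI-AML3 and HL-60, the changes were -0.20 and 0.09, smaller than the 2.56 log2 between these lines in control cells.

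IDH1 fell in NOMO-1, from 9.35 and 8.44 in control to 8.04 and 7.22 in treated cells. Treated arrays were below control arrays, with treated replicate 1 close to control replicate 2. The change was -1.27 ± 0.43 log2, 2.40-fold lower (adjusted p = 0.250, and 0.000630 with the block). Between arrays with the same replicate number it was -1.31 and -1.22. For the other calls in NOMO-1 these values were -1.70 and -0.38 (TET1), 1.09 and 2.09 (TET2), and -1.94 and -1.47 (DNMT3B). For TET2 they were 1.37 and 0.72 in MV4-11 and 1.06 and 1.11 in THP-1. The changes of IDH1 in the other lines reached from -0.50 in HL-60 to 0.58 in OCI-AML3, where the treated arrays (9.99 and 9.13) overlapped the control arrays (9.21 and 8.76).

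IDH2 did not reach the fold threshold in any line. In MV4-11, the line with its highest control signal, the arrays read 9.82 and 9.77 in control and 9.20 and 9.16 in treated cells. The groups were far apart for their spread, with a change of -0.62 ± 0.27 (adjusted p = 0.490, and 0.103 with the block). In MOLM-13, NOMO-1, THP-1, OCI-AML3 and U-937 it moved by -0.04 to 0.10, and in HL-60 by 0.36 ± 0.36.

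With the line as the unit, TET2 was higher after treatment in 7 of 7 lines by 0.64 ± 0.19 log2 on average (SE over 7 line differences, limma, unadjusted p = 0.00543, adjusted p = 0.249). DNMT3B was lower in 7 of 7 lines by -0.56 ± 0.18 (unadjusted p = 0.00868, adjusted p = 0.268), and DNMT1 averaged -0.21 ± 0.10 (adjusted p = 0.384). None of the 8 genes passed after adjustment, with 3 at an unadjusted p under 0.05, and 0% of all genes passed, with 2301 at an unadjusted p under 0.05. Without NOMO-1 the averages were 0.48 for TET2 and -0.37 for DNMT3B. Some of the changes with a common sign were near 0, as in HL-60 (0.05 for TET2 and -0.02 for DNMT3B). The 2 replicate numbers gave opposite signs for TET2 in MOLM-13, OCI-AML3 and HL-60, and for DNMT3B in U-937 and HL-60. The share of all genes with a common sign over the lines was not counted, so the sign counts have no background.

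The labels divide the lines by MLL rearrangement. The mean change of TET2 was 0.95 in the 4 MLL-r and 0.22 in the 3 non-MLL-r lines, a difference of 0.73 ± 0.32 that did not pass (limma, unadjusted p = 0.0442, adjusted p = 0.787). For DNMT3B the means were -0.79 and -0.26 (adjusted p = 0.815), and for TET1 -0.46 and 0.11 (adjusted p = 0.806). No member passed, and 0% of all genes did (1 of 8 and 1093 of all genes at an unadjusted p under 0.05).

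When the responses of the 7 lines were compared with one another in a fit over all 28 arrays, 0 of 8 genes differed between lines at an adjusted p under 0.05 (limma interaction F-test, 3 at an unadjusted p under 0.05), where 3.33% of all genes did. TET2 had an adjusted p of 0.198, TET1 0.206 and DNMT3B 0.460. With the replicate block 3 of 8 passed, against 10.7% of all genes. These were IDH1 (adjusted p = 0.00541), DNMT3B (0.0146) and TET2 (0.0341), so the response of these 3 genes differed between lines once the replicate number was in the fit.

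**Figure D3:**
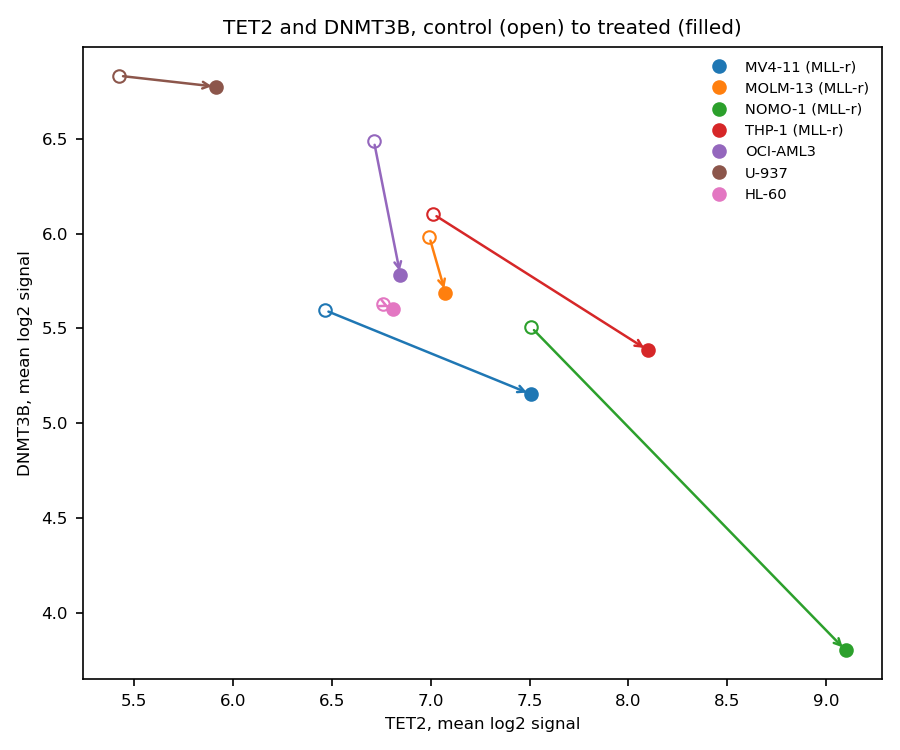
Mean log2 signal of TET2 (x axis) and DNMT3B (y axis) in control (open) and treated (filled) cells of each line, n = 2 arrays per point, with an arrow from control to treated. All 7 arrows point to higher TET2 and lower DNMT3B, and the longest is that of NOMO-1.

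Among the 28 pairs of the 8 genes, TET2 and DNMT3B had the most negative correlation over the 14 group means (Pearson r = -0.90). Over the 7 treated minus control changes r was -0.75, and TET3 with IDH1 (-0.92) and TET1 with TET3 (-0.76) were more negative. The points share lines and arrays, so these values are descriptions. U-937 had the lowest TET2 with the highest DNMT3B in control cells, and treated NOMO-1 had the highest TET2 with the lowest DNMT3B of any group.

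Some of the spread between replicates followed the replicate number. TET3 was higher on the replicate 2 array than on the replicate 1 array in 14 of 14 comparisons (7 lines, control and treated), by 0.34 to 1.40 log2 with a median of 0.77. IDH1 was lower on the replicate 2 array in 14 of 14, by values from -0.45 to -1.10 with a median of -0.86. Of all genes 2.76% were higher and 7.72% lower in every comparison. DNMT1 was higher in 12 of 14 and DNMT3A in 11 of 14, while TET1 (7), DNMT3B (6), IDH2 (6) and TET2 (5) had no common direction. The array's background control probes with 16 to 25 G or C bases moved the same way as TET3, with a mean log2 signal higher on the replicate 2 array in 14 of 14, by 0.49 to 1.36. Between treated and control cells the same background probes moved by -0.11 (THP-1) to 0.17 (MOLM-13), and by -0.02 in NOMO-1. The part of these probes in the gene values was not tested.

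**Figure D4:**
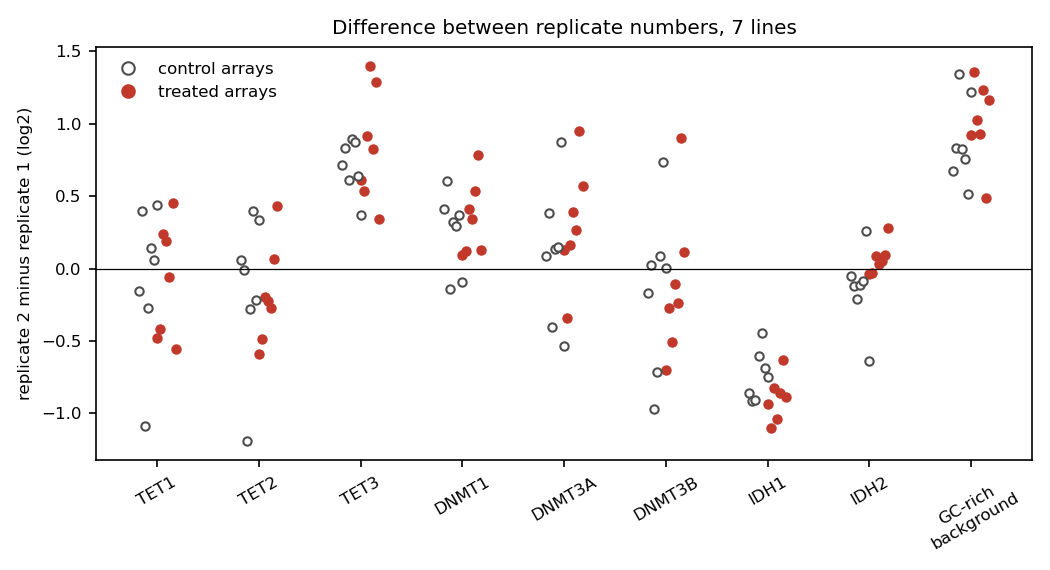
Replicate 2 minus replicate 1 difference (y axis, log2) of each gene and of the mean of 10 GC-rich background control probe sets (x axis), for control (open) and treated (filled) arrays of 7 lines. TET3 and the background probes lie above 0 and IDH1 below 0 in all 14 comparisons.

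Other genes of the pathway were read from lists, and a listed gene counted as higher or lower when it passed the thresholds in at least 1 line, which 8.38% of all genes did upwards and 5.38% downwards. Of 17 measured genes that maintain or read DNA methylation, 1 was lower and 0 higher. This was UHRF1, which recognises half-methylated CpG after replication and brings DNMT1 to it. In MV4-11 it read 9.29 and 9.38 in control and 8.24 and 8.16 in treated cells, and in NOMO-1 8.50 and 8.80 in control and 7.42 and 7.59 in treated cells. The groups were clearly apart in both lines, with changes of -1.13 ± 0.27 (adjusted p = 0.105, and 0.0144 with the block) and -1.15 ± 0.33 (adjusted p = 0.157, and 0.00165 with the block).

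Of 18 measured TET partners and base excision repair genes, 1 was higher and 0 lower. SLC23A2, a transporter of vitamin C, which TET enzymes use to keep their iron reduced, changed by 1.26 ± 0.40 log2 in NOMO-1 (adjusted p = 0.204, and 0.00128 with the block). Of 16 measured genes that make or use 2-oxoglutarate and 2-hydroxyglutarate, 1 was lower and 0 higher, namely LDHA, lactate dehydrogenase, by -1.31 ± 0.31 in MV4-11 (adjusted p = 0.0948, and 0.00837 with the block).

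Of 14 measured genes of the methyl donor cycle, which supplies the methyl group, 4 were lower and 0 higher. CBS, which draws homocysteine out of the cycle, changed by -1.30 in MV4-11. Short of the fold threshold, CBS changed by -0.79 in THP-1 and, the other way, by 0.72 in NOMO-1. MTHFD1, an enzyme of the folate pathway, changed by -1.18 and the salvage enzyme MTAP by -1.03 in MV4-11. MTRR, which reactivates methionine synthase, changed by -1.25 in NOMO-1. None of these 4 called changes passed after adjustment without the block (adjusted p = 0.0773 for CBS to 0.364 for MTAP), and all 4 did with it (0.000748 for MTRR to 0.0457 for MTAP). The list's median change was -0.20 in MV4-11 and -0.08 in NOMO-1, against -0.02 and -0.01 over all genes.

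Germline genes known to be silenced by methylation of their promoters were also examined, since they are a common readout of lost methylation. Of 20 measured, 0 were higher and 0 lower, and the median of their average change over lines was 0.01. In MV4-11, where their median was highest, it was 0.12.

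DNA replication and proliferation genes were read beside the enzymes because DNMT1 and UHRF1 are made most in dividing cells. Of 18 measured, 7 were lower and 0 higher, in MV4-11 and NOMO-1 alone. GINS2, a subunit of the replicative helicase, changed by -1.32 in MV4-11 and -1.46 in NOMO-1. Its partner GINS1 changed by -1.30 and the ribonucleotide reductase subunit RRM2 by -1.12 in MV4-11, and the transcription factor E2F1 by -1.25 in NOMO-1. In NOMO-1 CCNE2 (0.85), MKI67 (0.29) and RRM2 (0.11) went the other way, short of the thresholds. CCNE2 there had an adjusted p of 0.703 in limma, and 0.0237 with the block. The list's median change was -0.85 in MV4-11 and -0.70 in NOMO-1 and between -0.14 (MOLM-13) and 0.02 (U-937) in the others. MV4-11 and NOMO-1 are also the lines in which UHRF1 passed the thresholds, and NOMO-1 is the line in which DNMT3B did. DNMT3B also changed by -0.72 in THP-1 and -0.71 in OCI-AML3, where the list's median was -0.05 and -0.13. In MV4-11 DNMT3B changed by -0.44. The part of proliferation in the values of these enzymes was not tested.

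**Figure D5:**
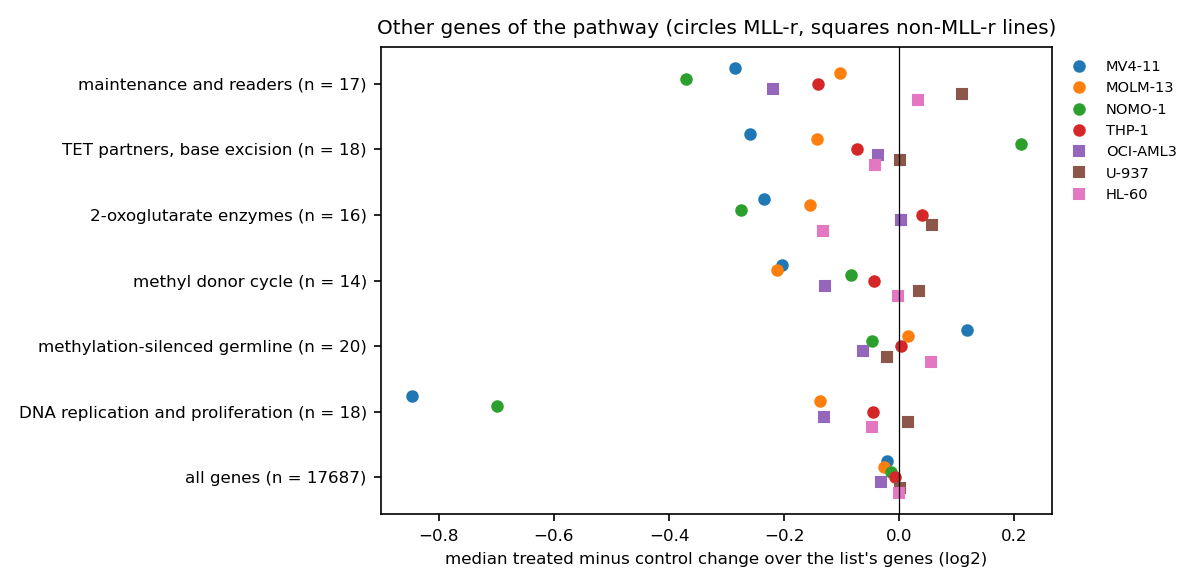
Median treated minus control change (x axis, log2) over the genes of each list (y axis) in each line, with MLL-r lines as circles and non-MLL-r lines as squares. Replication genes lie at -0.85 in MV4-11 and -0.70 in NOMO-1, and the germline list stays within 0.12 of 0 in every line.

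The summed signal of the 8 measured myeloid markers was also higher after treatment in the lines in which TET2 rose, although most of the 8 did not pass the thresholds there (3 higher and 1 lower in NOMO-1, 2 higher in MV4-11 and 3 higher in THP-1). The summed log2 signal was 72.2 to 74.5 in control and 78.1 to 78.3 in treated NOMO-1, 61.5 to 62.2 and 68.7 to 69.0 in MV4-11, and 65.0 to 65.2 and 73.6 to 74.9 in THP-1. CSF1R, the receptor of macrophage colony-stimulating factor, changed by 2.72 in NOMO-1 and 1.73 in MV4-11, and the integrin ITGAM by 2.29 in THP-1. KIT, the receptor of stem cell factor, fell in NOMO-1 by 2.06 on the log2 scale. MV4-11, the line with the highest control mean of KIT (7.93), showed almost no KIT change (-0.06), and THP-1 a small rise (0.21). ANPEP had the largest change of the 8 markers in MV4-11 (3.73). The granule enzyme MPO had the largest for THP-1 (2.64), above that of ITGAM, while MPO changed by -0.30 in MV4-11. The sum was also higher in treated MOLM-13, OCI-AML3 and U-937, where TET2 did not pass the thresholds, and overlapped in HL-60. The 16 markers of other cell types had median changes of -0.10 (MV4-11) to 0.18 (MOLM-13), and 5 calls upwards among them over all lines, 4 of PECAM1 and 1 of CD2. The part of myeloid maturation in the TET2 values was not tested.

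The genes whose pattern over the 14 group means was most like that of each enzyme were also found, as a description. They were SKIL (Pearson r = 0.94), CHIC2 (0.91) and ARRDC3 (0.90) for TET2, and POLD2, ALDH18A1 and TWNK (each 0.94) for DNMT3B. For TET1 they were FOXK1 (0.91), VPS72 (0.90) and PDZD11 (0.89), and for TET3 PLEKHO2 (0.93), BRPF3 (0.92) and TREM1 (0.91). For DNMT1 they were CLPP (0.92), NDOR1 (0.88) and NR2C2AP (0.88), and for DNMT3A IKBKE (0.94), BAZ2A (0.93) and SRGAP2 (0.91). For IDH1 they were TOR1AIP2 (0.93), SPATC1L (0.91) and COX6A1 (0.91), and for IDH2 NUBP1, PTPN9 and PIGBOS1 (each 0.93). No enzyme of the 8 was among the closest genes of another.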

How the data were processed

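Total RNA of 7 AML cell lines was biotin-labelled with the GeneChip WT PLUS reagents and read on 1-colour Clariom S arrays. The deposited values are log2 signals per probe set, made by the authors with RMA (background correction, quantile normalization, summarization) in R 3.6.1, per the labels. They carry no detection call and no genome build, so gene coordinates of probe sets are not given here. Of 27189 entries 21448 were transcript probe sets and 17709 had 1 gene symbol in the platform annotation. Probe sets of 20 genes were averaged, giving 17687 genes, and 3739 unnamed probe sets were used only in an alternative.

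Treated and control arrays were compared within each line (2 against 2) by lmFit and eBayes of limma 3.58.1 in R 4.3.3, without a filter on signal, and p-values were adjusted over all genes by Benjamini-Hochberg. Interaction and control level F-tests, and limma on the 7 line differences or line means, were fitted in the same way. All p-values come from limma. Fits were tested on simulated data with independent noise on each array. No difference between replicate numbers was simulated, so the block was not tested on data with such a difference. Standard errors of single lines come from limma, and SDs are over 2 arrays.

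The labels number the replicates 1 and 2 in each group. Deviations of same-numbered control and treated arrays from their group means were correlated across genes in every line, with r from 0.42 in HL-60 up to 0.64 in NOMO-1. Same-numbered arrays of a line thus varied together. Pairs within a line and a difference shared by all arrays of a replicate number cannot be told apart by this correlation. The study describes its comparison within a line as paired. The fits given first here leave the pairing out, and the value with the block is printed where it changes a call.

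The genes named are all 8 enzymes, up to 4 called genes per list with the largest change in a line, the 3 genes most correlated with each enzyme, and markers. For the replication list, genes that went the other way in NOMO-1 are named as well. Genes and lists were chosen with earlier results of these data known. Alternatives were a signal filter, array centring, all probe sets, the block, leaving out each replicate or line, 1 fit over all arrays, and trended robust variances. The control level test with the block was added after seeing the data. Promoter sequences are from RefSeq (GRCh38.p14), where all 8 genes matched 18 windows.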

Additional observations from a re-analysis of the deposited data

Results flagged for a closer look

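Over the 7 lines, 24 groups of values were examined for a single value far from the rest, of which chance sets apart about 1 in 20. The TET3 change in NOMO-1 of 0.45 log2 lay far above those of the other 6 lines. The DNMT3B change in NOMO-1 of -1.70 lay far below them, and so did the IDH2 change in MV4-11 of -0.62.

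The response differed between the 7 lines with the replicate block for IDH1 (limma interaction F-test, adjusted p = 0.00541), DNMT3B (adjusted p = 0.0146) and TET2 (adjusted p = 0.0341). Without the block none of these 3 passed.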

How the results depend on the processing

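The replicate block raised the number of combinations of gene and line at an adjusted p under 0.05 from 0 to 6, and 1 fit over all 28 arrays raised it to 3 (TET1, TET2 and DNMT3B in NOMO-1). Leaving out each replicate in turn gave 1 to 3 at an adjusted p and 3 to 6 past the thresholds, against 6 with all arrays. They include DNMT3B in THP-1 (-1.07 without control replicate 2) and IDH1 in OCI-AML3 (1.01 without treated replicate 2), which are not among those 6. With 1 array left in an arm, that array is assumed to vary like the other. The interaction test called 0 genes without and 3 with the block. None of the 6 called changes turned sign. Without MV4-11 the uncalled difference of DNMT3A between MLL-r and non-MLL-r responses became 0.05 (from -0.08) and the uncalled average of IDH2 0.07 (from -0.03). Single values that lost the thresholds did so only when a replicate was left out. These were TET2 in MV4-11 (0.75 without treated replicate 1), TET2 in NOMO-1 (0.995 without control replicate 2, just short of the fold threshold), TET2 in THP-1 (0.95 without control replicate 2 and 0.97 without treated replicate 1), TET1 in NOMO-1 (-0.50 without control replicate 1 and -0.93 without treated replicate 1) and IDH1 in NOMO-1 (-0.81 without control replicate 1 and -0.85 without treated replicate 2). DNMT3B in NOMO-1 kept the thresholds in each. The control level test called 6 genes with and without the block, and 5 when all transcript probe sets were tested. The interaction and control level tests could not be fitted without a whole replicate number, since no residual spread is left. The interaction test was not run with a replicate left out of 1 arm only. Centring each array moved no change of the 8 genes by more than 0.0320 log2. The cause of these differences was not tested, and 2 arrays per group limit what they can show.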
